A study of Mus musculus with 12 samples.

Results

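The genes described here are those of synaptic vesicle fusion and of the scaffolds on either side of the synapse, measured in the hippocampal CA1 field of mice. Members were chosen by gene symbol alone: families named Syt, Stx, Vamp, Snap, Cplx, Syn, Sv2, Rims, Shank, Nrxn, Nlgn and Dlgap, together with Dlg1 to Dlg4, Bsn, Pclo and Syp. The symbol rule found 68 members among the 12394 genes that a probe set of the array names singly. By role they were 14 synaptotagmins, 12 syntaxins, 7 vesicle SNAREs, 7 postsynaptic scaffolds, 5 SNAP proteins, 4 complexins, 4 syntaxin-binding proteins, 3 synapsins, 3 active zone proteins, 2 vesicle glycoproteins, 2 adhesion proteins and 5 genes that match by name only. The last 5 are Snapc2, Snapc3 and Snapc5 (subunits of a complex that transcribes small nuclear RNA genes), Sync (an intermediate filament protein) and Syncrip (an RNA-binding protein). Dlgap5, grouped with the postsynaptic scaffolds by its symbol, is known as a mitotic spindle protein. These genes were kept in all counts and also counted apart. Snap91, an adaptor of clathrin assembly, was grouped with the SNAP proteins by its symbol and was not counted apart.

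Neurotransmitter is released when a SNARE protein on the vesicle, such as synaptobrevin (Vamp2), zips together with syntaxin (Stx1a) and Snap25 on the plasma membrane. Some synaptotagmins, such as Syt1, sense the calcium that triggers this step, complexins clamp and assist it, and syntaxin-binding proteins guide assembly. Bassoon, Piccolo and Rim proteins hold the vesicles at the active zone. Across the cleft, neuroligins, Dlg proteins (the family of PSD-95) and Shank proteins anchor the glutamate receptors. CA1 pyramidal neurons, which carry many such synapses, are known for their sensitivity to brief global ischemia.

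Each of 12 Affymetrix arrays measured total RNA from CA1 tissue pooled from 2 mouse brains. Wild-type mice and SUMO-KD mice, a transgenic knockdown of the small ubiquitin-like modifier that is attached to other proteins, had sham surgery or 10 minutes of global cerebral ischemia followed by 3 hours of reperfusion, with 3 arrays in each of the 4 groups. Strain, age, sex and the promoter that drives the transgene are not given in the sources used here, and the label text on ischemia and reperfusion stands on the sham samples as well. Samples are labelled biological replicates, without litter or surgery day, so p-values measure the spread between pools.

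Values are the deposited intensities of a single probe set per gene. A change is a difference of mean log2(intensity + 32) and is given ± its standard error (SE). The offset of 32 shrinks the changes of dim genes, and the 5 dimmest members (Stx19, Dlgap5, Nlgn1, Cplx4 and Snapc5) had mean intensities under 32. A gene was called where the Benjamini-Hochberg adjusted p of limma over all 12394 genes was under 0.05. Intensities are listed in the order of replicates 1 to 3, and no level is compared between genes.

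The median intensity of an array was between 141 and 162, 0 arrays were identical, and arrays of a group correlated at 0.985 or above. Sumo3, the gene of the modifier among those tested, lay between 2247 and 2467 in wild-type sham and between 1337 and 1689 in SUMO-KD sham. After ischemia it lay between 3245 and 3518 in wild-type and between 1879 and 1936 in SUMO-KD. Its differences of -0.58 ± 0.10 in sham and -0.82 ± 0.10 after ischemia were called (adjusted p = 0.0096 and 0.00151). The 3′ probe set for 18S ribosomal RNA read between 5087 and 7569 on the sham arrays and between 2829 and 4127 on 5 of the 6 ischemia arrays, while replicate 2 of SUMO-KD ischemia read 6316. The 5′ probe set moved further, from between 4194 and 6528 on the sham arrays to between 1275 and 1660 on the same 5 ischemia arrays, with 4127 on that replicate. All 14 pan-neuronal markers were measured, and their summed intensity overlapped between the groups, from 37767 to 42368 over all arrays. That list includes the members Snap25 and Syt1, so its sum is not independent of the values described below. With ischemia 1 pan-neuronal marker was called higher and 0 lower in each genotype. In SUMO-KD against wild-type, 1 was higher in sham, and 1 was higher and 1 lower after ischemia. The summed intensity of the measured CA1 pyramidal markers, 2 of 6 listed, was 3605 to 5241 in wild-type sham, 2035 to 2927 in wild-type ischemia, 2093 to 2704 in SUMO-KD sham and 1855 to 2316 in SUMO-KD ischemia. Both measured CA1 markers fell with ischemia in wild-type, neither was called in SUMO-KD, and 1 was lower in SUMO-KD sham than in wild-type sham. Among 7 microglial markers 3 fell with ischemia in each genotype, and 3 of 7 interneuron markers fell in wild-type. Summed endothelial markers, 5 of 6 listed, went from 1828 to 2259 in sham to 1363 to 1719 after ischemia in wild-type and from 1529 to 2013 to 1368 to 1486 in SUMO-KD, with 1 called higher and 1 lower in each. Summed dentate markers, 3 of 4 listed, were 1996 to 2822 in SUMO-KD sham and 1387 to 1663 after ischemia, with none called there. Summed astrocyte markers, 7 of 7, were 17662 to 21652 in wild-type sham and 22030 to 23823 in SUMO-KD sham, with 2 called higher. The part of these shifts in the results below was not tested, and in bulk tissue fewer cells of a type and less RNA per cell cannot be told apart.

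In wild-type mice, 3 hours after ischemia, a minority of the members changed, with 8 lower and 4 higher; without replicate 2 of wild-type sham the split turned to 5 lower and 6 higher. Those that fell were Syt17, Dlg3, Shank3, Stx12, Stx7, Vamp4, Vamp7 and the name-only member Snapc3, with log2 changes from -0.86 to -0.26. Those that rose were Syncrip, Bsn, Snapc2 and Stxbp3, by 0.46 to 0.81. Of the core machinery of fast release, Snap25, Vamp2, Syt1, Stx1a, Cplx1, Cplx2, Syn1, Syp, Sv2a and Pclo were not called in any of the 6 comparisons, although Stx1a passed for ischemia in wild-type in 5 alternative settings, Sv2a for genotype in sham in 4 and Syn1 for the mean response on 1 omission of an array (adjusted p = 0.0344). On all 12 called members the sham and ischemia arrays did not overlap, which is no separate support since the calls were made on the same arrays.

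As a share, 17.6% of members were called in wild-type, against a background of 18.5% of all genes. Members called higher, 4 of 68, stood against 9.59% of all genes and members called lower, 8 of 68, against 8.88%. The members' share is near the background and says nothing particular about them. Their median change was -0.12, against -0.04 over all genes, with 45 members below 0 and 23 above. Of all 12394 genes, 6924 were below 0 and 5470 above. Among genes that passed a filter on dim genes, the medians were -0.13 for members and -0.07 for all genes. A change of at least 0.5 in size was seen in 10.3% of members and 12.6% of all genes. Sham and ischemia arrays did not overlap for 24 members and for 35.1% of all genes. Without the name-only members and Dlgap5, 62 members remained, of which 2 rose and 7 fell. At an unadjusted p under 0.05 there were 23 members of the 68, or 33.8%, against 31.3% of all genes. Omission of 1 array at a time moved the wild-type counts to between 2 and 6 members risen and between 3 and 8 fallen. The low counts of 2 risen came without replicates 1 or 3 of wild-type sham, replicates 1 or 3 of wild-type ischemia, or replicate 3 of SUMO-KD ischemia. Fallen members were 3 without replicate 1 of wild-type sham or replicate 1 of wild-type ischemia, 4 without replicate 3 of either wild-type group, and 5 without replicate 2 of wild-type sham, where 6 rose. Without replicate 2 of SUMO-KD ischemia the counts stayed at 4 and 8. Fitted on the compared groups only, Bsn, Shank3, Stx12, Stx7, Stxbp3, Vamp4 and Vamp7 lost the wild-type call (adjusted p from 0.064 to 0.128).

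**Figure D1:**
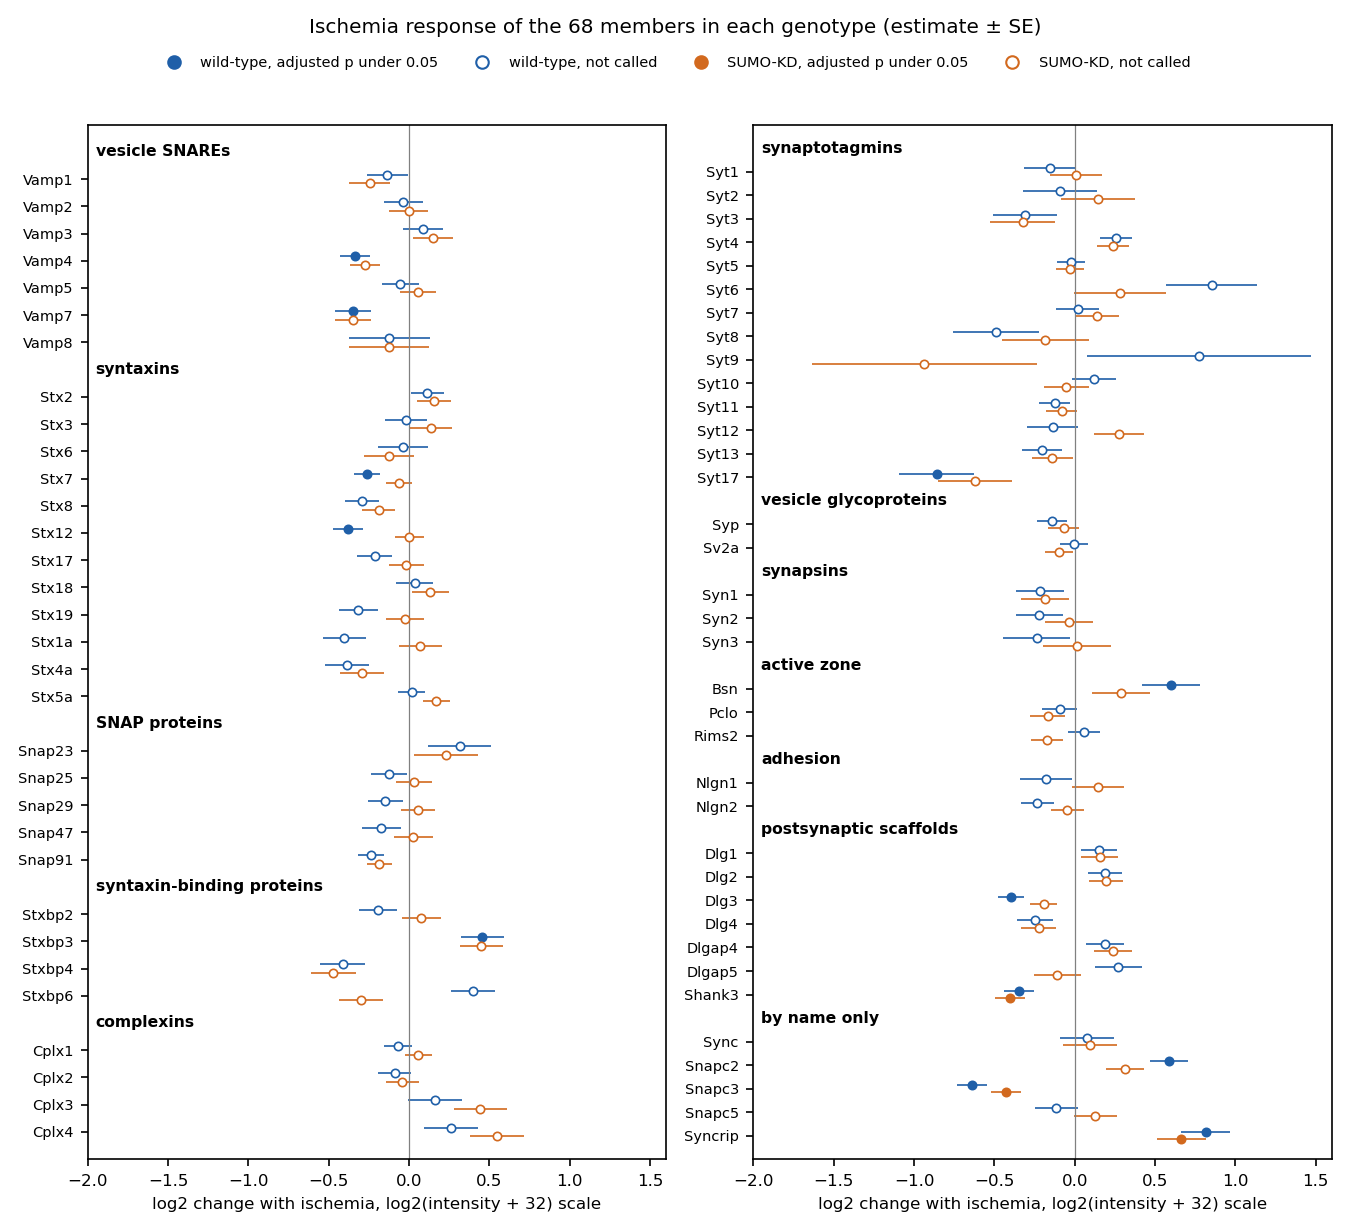
Log2 change of intensity with ischemia for each of the 68 members, grouped by role, in wild-type (blue) and SUMO-KD (orange); points are limma estimates, bars are ± SE, and filled points were called at an adjusted p under 0.05. Filled points are 12 in wild-type, from Syt17 at -0.86 to Syncrip at 0.81, and 3 in SUMO-KD.

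Among the 7 vesicle SNAREs, 2 fell with ischemia in wild-type and none rose, against 8.88% of all genes called lower and 9.59% higher. The counts by family, here and below, are too small to set a family apart from these shares. Vamp4, a vesicle SNARE of endosomes and of bulk membrane retrieval, read 1799, 2038 and 2022 in wild-type sham and 1604, 1399 and 1628 in wild-type ischemia. Its SUMO-KD values were 1913, 1787 and 1973 in sham and 1677, 1502 and 1501 after ischemia. In each genotype all ischemia arrays were below all sham arrays. The wild-type change was -0.33 ± 0.09 (adjusted p = 0.0292) and the SUMO-KD change -0.27 ± 0.09 (adjusted p = 0.0919), so the latter missed the threshold. The wild-type call was lost on omission of replicates 2 or 3 of wild-type sham or replicates 1 or 2 of wild-type ischemia, with an adjusted p of up to 0.0961. Its other bright probe set gave -0.53 in wild-type, with an adjusted p of 0.0042 over all probe sets.

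Vamp7, a SNARE of late endosomes and lysosome-related vesicles, read 1469, 1520.4 and 1478 in wild-type sham and 1117, 1336 and 1054 after ischemia. In SUMO-KD the values were 1661, 1743 and 1601 in sham and 1492, 1155 and 1285 after ischemia. Neither genotype's arrays overlapped, and the estimates were -0.35 ± 0.11 in both (adjusted p = 0.0494 in wild-type and 0.071 in SUMO-KD). The call in wild-type is a marginal one: it was lost in 9 of the 12 omissions of an array, all but those of replicate 2 of wild-type ischemia and replicates 1 and 2 of SUMO-KD ischemia, with an adjusted p of up to 0.155. The mean response over both genotypes, which uses all 12 arrays, was -0.35 ± 0.08 (adjusted p = 0.00677) and was kept in every omission. Its second probe set gave -0.25 in wild-type (adjusted p = 0.378) and -0.36 for the mean response (adjusted p = 0.0502), neither called. Vamp2, the vesicle SNARE of fast release, lay between 4186 and 4534 in wild-type sham and between 3619 and 4929 after ischemia, groups that overlap fully, with a change of -0.04 ± 0.12 (95% interval -0.30 to 0.23).

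Of the 12 syntaxins, 2 fell in wild-type, against 8.88% of all genes: Stx12 and Stx7, both known from endosomes. Stx12 read 2826, 2517 and 2665 in wild-type sham and 1817, 2127 and 2197 after ischemia, a change of -0.38 ± 0.09 (adjusted p = 0.0146). SUMO-KD arrays gave 2463, 2252 and 2379.5 in sham and 2446, 2383 and 2274 after ischemia, a change of 0.00 ± 0.09. The arrays are apart in wild-type and overlap in SUMO-KD, and the difference between the responses, 0.38 ± 0.13, had an unadjusted p of 0.013 and an adjusted p of 0.718. Without replicate 1 of wild-type sham or replicate 1 of wild-type ischemia the call was lost, with an adjusted p of up to 0.0614.

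Stx7 read 1396, 1387 and 1245 in wild-type sham and 1080.0, 1189.8 and 1071 after ischemia, a change of -0.26 ± 0.08 (adjusted p = 0.0478). In SUMO-KD it read 1153, 1149.6 and 1168 in sham and 1046, 1166 and 1112 after ischemia, a change of -0.06 ± 0.08. As for Vamp7, the wild-type call did not survive 9 of the 12 omissions of an array, all but those of replicate 3 of wild-type sham, replicate 2 of wild-type ischemia and replicate 1 of SUMO-KD ischemia, with an adjusted p of up to 0.147. Stx1a, the syntaxin of the release machinery, read 1815, 1969.5 and 1725 in wild-type sham and 1507, 1526 and 1141 after ischemia. Those arrays do not overlap, but the change of -0.40 ± 0.13 had an adjusted p of 0.0582 and is not counted. It passed with an offset of 64, the filter on dim genes, quantile normalization, median centring and trend and robust settings (adjusted p from 0.0304 to 0.0493). Its change in SUMO-KD was 0.07 ± 0.13.

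A further 2 syntaxins were called only when both genotypes were averaged. Stx4a, a syntaxin of the plasma membrane, read 581, 395 and 612 in wild-type sham and 412, 407 and 355 after ischemia. Its SUMO-KD values were 543, 575 and 569 in sham and 445, 462 and 455 after ischemia. Wild-type sham replicate 2 lies among the ischemia values, while the SUMO-KD arrays are apart. The mean response was -0.34 ± 0.10 (adjusted p = 0.0219), lost without replicates 1 or 3 of wild-type sham (adjusted p up to 0.0548). Stx8, a SNARE of late endosomes, had a mean response of -0.24 ± 0.07 (adjusted p = 0.031), a call lost in 8 of the 12 omissions (adjusted p up to 0.0738) and kept without replicate 1 of wild-type ischemia, replicate 2 of SUMO-KD sham or replicates 1 or 3 of SUMO-KD ischemia.

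None of the 5 members grouped by symbol as SNAP proteins was called in either genotype. Snap25 ranged from 10968 to 14370.0 in wild-type sham and from 10888 to 12639 after ischemia, with a change of -0.13 ± 0.11 (95% interval -0.37 to 0.12) and one of 0.03 ± 0.11 in SUMO-KD. Snap91, an adaptor of clathrin assembly known as AP180, read 4705, 4885 and 4728 in wild-type sham and 4113, 4192 and 3827 after ischemia. Its SUMO-KD values were 4848, 4702 and 4346 in sham and 4188, 3882 and 4135 after ischemia, so the arrays did not overlap in either genotype. Its changes of -0.24 ± 0.08 and -0.19 ± 0.08 (adjusted p = 0.0582 and 0.177) missed the threshold singly. The mean response of -0.21 ± 0.06 was called (adjusted p = 0.0157) and held in every omission and every other setting. Snap91 has 1 probe set, so other probe set choices could not change the estimate. Snap47 changed by -0.17 ± 0.12 and 0.03 ± 0.12.

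The 4 syntaxin-binding proteins did not move together. Stxbp3, also called Munc18c, is known as a partner of plasma membrane syntaxins outside the fast release pathway. It read 518, 731 and 616 in wild-type sham and 792, 837 and 947 after ischemia, and 619, 551 and 559 against 706, 923 and 775 in SUMO-KD. All ischemia arrays were above all sham arrays of the same genotype. The changes were 0.46 ± 0.13 in wild-type (adjusted p = 0.0357) and 0.45 ± 0.13 in SUMO-KD (adjusted p = 0.0554). The wild-type call was lost in 6 omissions (replicates 1 or 3 of wild-type sham, any wild-type ischemia array, replicate 3 of SUMO-KD ischemia), with an adjusted p of up to 0.135. The mean response, 0.45 ± 0.09 (adjusted p = 0.00445), was kept in all 12. A dimmer probe set, with a mean intensity of 50.1, lost both calls, at 0.43 in wild-type (adjusted p = 0.21) and 0.18 for the mean response (adjusted p = 0.454).

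Stxbp4, a syntaxin-binding protein described in insulin-responsive cells, read 257, 237 and 255 in wild-type sham and 134, 220.1 and 194 after ischemia. The SUMO-KD values were 229, 277 and 247 in sham and 192, 163 and 161 after ischemia. Again the arrays did not overlap in either genotype, the single changes of -0.41 ± 0.14 and -0.47 ± 0.14 were not called (adjusted p = 0.0629 and 0.0547), and the mean response of -0.44 ± 0.10 was (adjusted p = 0.00662). A dimmer probe set of Stxbp4, with a mean intensity of 6.22, gave -0.08 for the mean response (adjusted p = 0.582).

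Stxbp6, known as amisyn, read 253, 317 and 284 in wild-type sham and 376, 405 and 369 after ischemia, with a change of 0.40 ± 0.14 (adjusted p = 0.0677). SUMO-KD arrays gave 304, 378 and 296 in sham and 204, 279 and 298 after ischemia, with a change of -0.30 ± 0.14 (adjusted p = 0.209). The estimates have opposite signs, and their difference of -0.70 ± 0.19 had an unadjusted p of 0.00405 but an adjusted p of 0.567. Stxbp6, like Syt9, Nlgn2, Dlg1, Dlg2 and Dlgap4, was named after its values were seen.

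Complexins bind the assembled SNAREs. Cplx1 and Cplx2, the forms of fast synapses in the forebrain, changed by -0.07 ± 0.09 and -0.09 ± 0.10 in wild-type and by 0.06 ± 0.09 and -0.04 ± 0.10 in SUMO-KD. Cplx4, known from retinal ribbon synapses, was called for the mean response at 0.40 ± 0.12 (adjusted p = 0.0268), but it was dim. Its intensities were 1.64, 20.7 and 17.4 in wild-type sham and 18, 13.9 and 33.7 after ischemia, and 1.85, 3.45 and 3.83 in SUMO-KD sham and 15.8, 20.1 and 21.7 after ischemia. Only 1 of these 12 values is above the offset of 32, the wild-type arrays overlap, and the call was lost in 4 omissions (replicate 3 of wild-type ischemia, replicate 1 of SUMO-KD sham, replicates 2 or 3 of SUMO-KD ischemia; adjusted p up to 0.0594).

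Synaptotagmins were the largest family, and 1 of 14 was called in wild-type, against 18.5% of all genes. Syt17, a synaptotagmin-like protein also named B/K, read 619, 707 and 634 in wild-type sham and 259, 429 and 369.6 after ischemia. That is a change of -0.86 ± 0.23 (adjusted p = 0.025), or 0.552 times the sham value on the offset scale. In SUMO-KD it read 1187, 808 and 1044 in sham and 723, 431 and 834 after ischemia, a change of -0.62 ± 0.23 (adjusted p = 0.122), and the arrays overlap at replicate 2 of SUMO-KD sham and replicate 3 of SUMO-KD ischemia. The wild-type call was lost without any wild-type sham array or without replicates 1 or 3 of wild-type ischemia, with an adjusted p of up to 0.0932. The mean response of -0.74 ± 0.16 (adjusted p = 0.0063) held in every omission. A second Syt17 probe set gave -0.60 in wild-type, with an adjusted p of 0.0754 over all probe sets, and -0.39 for the mean response (0.077).

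Syt4, a synaptotagmin of dense-core vesicles whose transcript is induced by neuronal activity, read 1869, 2159 and 1751 in wild-type sham and 2363, 2218 and 2311 after ischemia. In SUMO-KD the values were 2278, 2288 and 2175 in sham and 2385, 2854 and 2747 after ischemia. The ischemia arrays lay above the sham arrays in both genotypes, and the mean response was 0.25 ± 0.07 (adjusted p = 0.0219). That call was lost in 5 omissions (replicates 1 or 3 of wild-type sham, replicate 3 of SUMO-KD sham, replicates 2 or 3 of SUMO-KD ischemia), with an adjusted p of up to 0.0556, and when each array was centred on its median. Syt1, the calcium sensor of fast release, lay between 377 and 560.4 in wild-type sham and between 356 and 454 after ischemia, a change of -0.15 ± 0.16 (95% interval -0.51 to 0.20). Syt11 changed by -0.13 ± 0.09 and -0.08 ± 0.09. Syt9 was the least reproducible member, with 47.5, 199.8 and 541 in the wild-type ischemia group alone, and its SE of 0.70 leaves changes of either sign within the 95% interval of -0.76 to 2.30.

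The synapsins, which tether vesicles to each other and to actin, and the vesicle glycoproteins held no called member in any comparison. Syn1 read 3256, 3312 and 2825 in wild-type sham and 2907, 2705 and 2446 after ischemia, a change of -0.22 ± 0.15, with -0.19 ± 0.15 in SUMO-KD. All 3 synapsins had wild-type estimates between -0.24 and -0.22. Synaptophysin (Syp), the standard vesicle marker, read 4359.7, 4207 and 4413 in wild-type sham and 3997, 4047 and 3704 after ischemia, a change of -0.14 ± 0.09 (adjusted p = 0.34) although those arrays do not overlap.

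At the active zone, Bassoon (Bsn), a large scaffold of the presynaptic cytomatrix, rose in wild-type. It read 91.3, 106 and 74.8 in sham and 143, 111 and 222 after ischemia, a change of 0.60 ± 0.18 (adjusted p = 0.0389). In SUMO-KD the values were 119, 96.9 and 99.6 in sham and 121, 147 and 138 after ischemia, a change of 0.29 ± 0.18 (adjusted p = 0.378). The groups are apart in both genotypes, but the nearest arrays read 106 and 111 in wild-type and 119 and 121 in SUMO-KD. The wild-type call was lost in 7 omissions of an array (replicates 1 or 3 of either wild-type group, replicates 2 or 3 of SUMO-KD sham, replicate 3 of SUMO-KD ischemia), with an adjusted p of up to 0.132, and another Bsn probe set, with a mean intensity of 2.93, was far below the offset and gave -0.0011. Piccolo (Pclo), its close relative, changed by -0.09 ± 0.11 and -0.17 ± 0.11.

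Of the 7 members grouped by symbol as postsynaptic scaffolds, Dlgap5 among them, 2 fell with ischemia in wild-type and 1 in SUMO-KD. The shares of all genes called lower were 8.88% and 4.62%. Dlg3 (SAP102), a glutamate receptor scaffold of the PSD-95 family, read 2177, 2072 and 2231 in wild-type sham and 1663, 1673 and 1562 after ischemia. Its change of -0.40 ± 0.08 (adjusted p = 0.00653) was kept in all 12 omissions of an array and all 13 other settings. Dlg3 has 1 probe set, so the settings with other probe set choices could not change the estimate. Its SUMO-KD values were 2324, 2123 and 2219 in sham and 1808, 1928 and 2085 after ischemia, also without overlap, and the change of -0.19 ± 0.08 was not called (adjusted p = 0.175). The difference between the responses, 0.20 ± 0.12, had an adjusted p of 0.869.

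Shank3, a master scaffold of the postsynaptic density, was the one member with a known synaptic role to be called lower in both genotypes. Vamp4, Vamp7, Dlg3, Dlg4, Snap91 and Stxbp4 were also lower in both without overlap of arrays, but were not called in both. Shank3 read 1722, 1479 and 1638 in wild-type sham and 1343, 1246 and 1191 after ischemia. SUMO-KD arrays read 1555, 1481 and 1442 in sham and 1222, 1021 and 1122 after ischemia. No ischemia array reached the level of any sham array of the same genotype. The changes were -0.35 ± 0.09 (adjusted p = 0.0252) and -0.41 ± 0.09 (adjusted p = 0.0185), the latter 0.0508 in a fit on SUMO-KD arrays only. Each call was lost in 4 omissions. In wild-type these were sham replicates 1 or 3 and ischemia replicates 2 or 3 (adjusted p up to 0.0963), and in SUMO-KD sham replicates 1 or 2 and ischemia replicates 2 or 3 (adjusted p up to 0.0809). The mean response, -0.38 ± 0.07 (adjusted p = 0.00158), was kept throughout, although Shank3 too has 1 probe set and no other to choose.

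Dlg4, which encodes PSD-95, read 2523, 2138 and 2269 in wild-type sham and 2046, 2038 and 1742 after ischemia, with 2459, 2051 and 2009 against 1999, 1769 and 1784 in SUMO-KD. The changes of -0.25 ± 0.11 and -0.22 ± 0.11 were not called singly, and the mean response of -0.24 ± 0.08 (adjusted p = 0.0434) was lost with offsets of 1 and 16 (0.0582 and 0.0523), on the mean of its probe sets (-0.13, 0.118), on its second probe set (-0.23, 0.0975) and in 9 of 12 omissions (adjusted p up to 0.103), all but those of replicate 2 of wild-type sham, replicate 3 of SUMO-KD sham and replicate 1 of SUMO-KD ischemia. The family did not move as a whole: Dlg1 and Dlg2 had mean responses of 0.15 and 0.19, Dlgap4 0.21 ± 0.08, and none of those was called in the fit as reported. Dlg1 passed on its second probe set (0.33, adjusted p = 0.0451). Dlg2 passed in 3 settings or omissions, and Dlgap4 in 1 omission (adjusted p = 0.0167). The adhesion proteins were not called either. Nlgn2, the neuroligin of inhibitory synapses, changed by -0.23 ± 0.10 (adjusted p = 0.151) in wild-type, and Nlgn1, of excitatory synapses, was too dim to follow, with a highest intensity of 26.6.

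**Figure D2:**
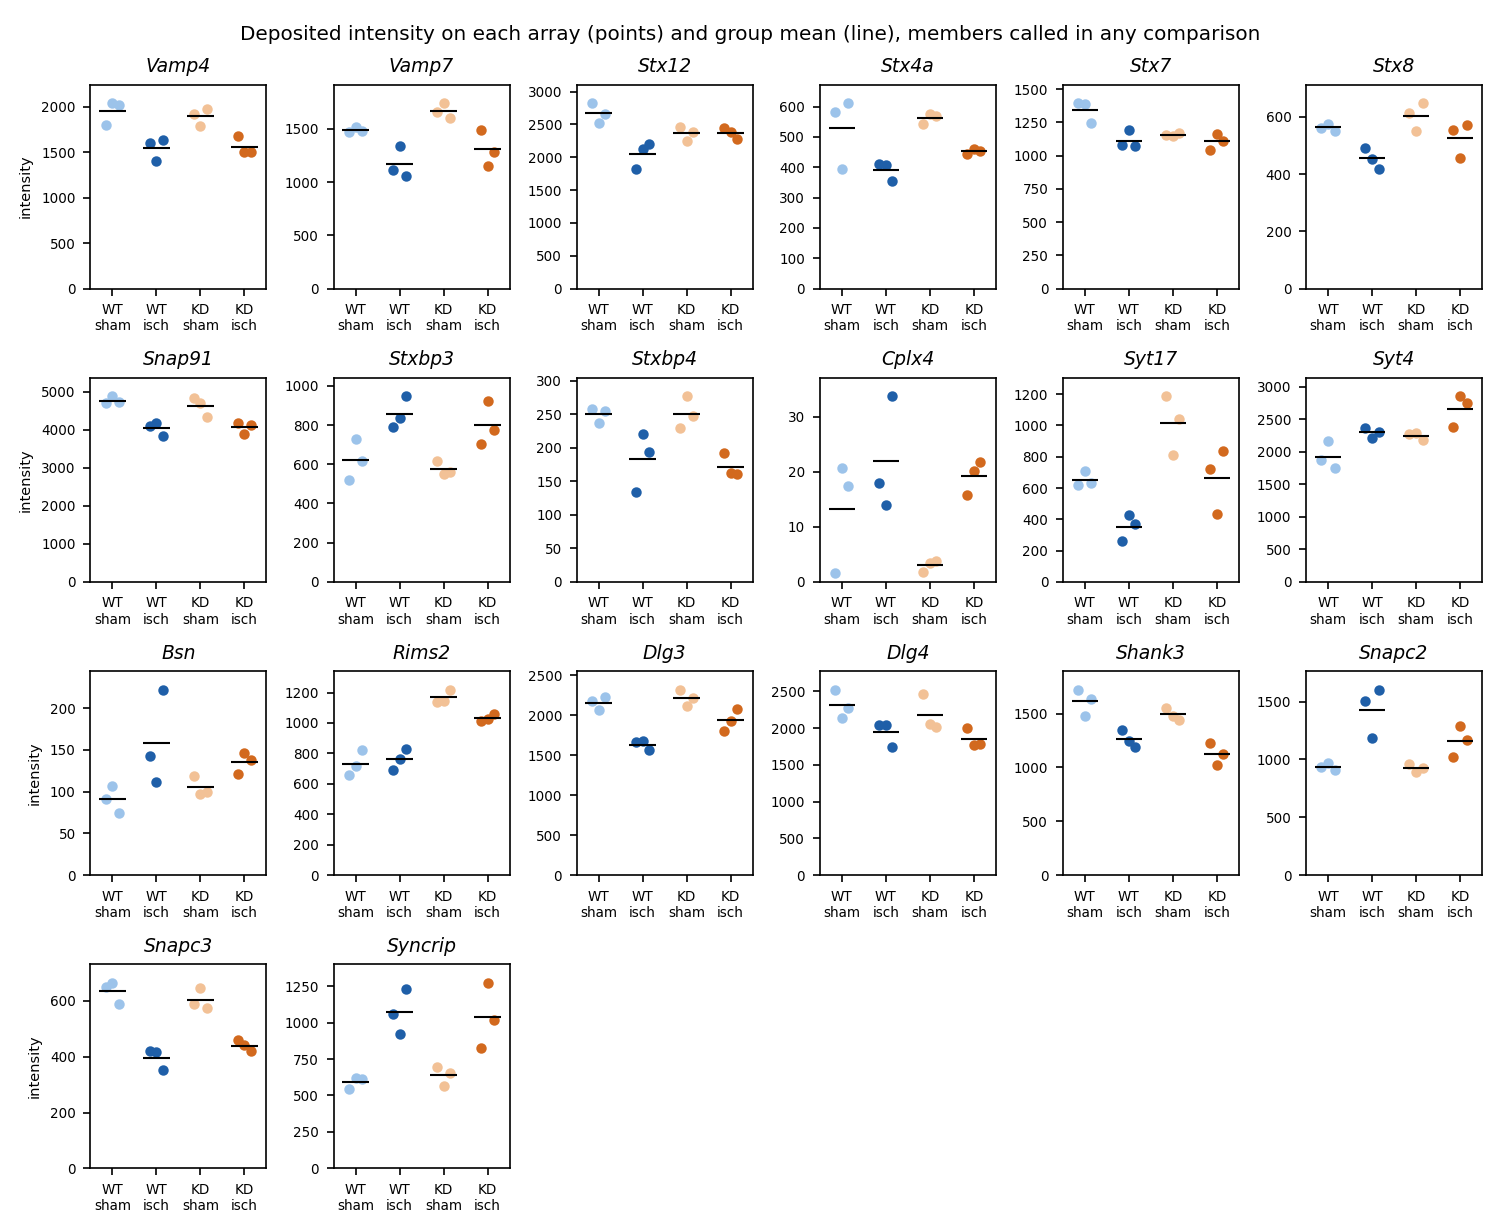
Deposited intensity on each array for the 20 members called in at least 1 of the 6 comparisons, with 1 panel a gene; points are arrays and lines are group means, in the order wild-type sham, wild-type ischemia, SUMO-KD sham and SUMO-KD ischemia. Shank3 and Snapc3, called in both genotypes, lie lower after ischemia without overlap, Syncrip lies higher, and Rims2 is set apart by genotype instead. Without a call in both, Vamp4, Vamp7, Dlg3, Dlg4, Snap91 and Stxbp4 also lie lower in both without overlap. Bsn, Snapc2, Stxbp3 and Syt4 lie higher in the same way.

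Of the 5 name-only members, 3 were called in wild-type and 2 of these also in SUMO-KD, against 18.5% and 10.7% of all genes. Syncrip, which binds RNA and takes part in its transport and decay, read 544, 623 and 611 in wild-type sham and 1062, 922 and 1234 after ischemia, a rise of 0.81 ± 0.15 (adjusted p = 0.0038). SUMO-KD arrays gave 694, 564 and 657 in sham and 829, 1273 and 1019.8 after ischemia, a rise of 0.66 ± 0.15 (adjusted p = 0.0181) that was lost without replicate 2 of SUMO-KD sham or replicates 2 or 3 of SUMO-KD ischemia (adjusted p up to 0.0721). The 4 probe sets of Syncrip did not agree: the second brightest gave -0.26 in wild-type and -0.47 in SUMO-KD, and the latter passed in the opposite direction with an adjusted p of 0.0261 over all probe sets. The direction for the gene is therefore that of the probe set.

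Snapc3 fell from 649, 665 and 590.3 to 422, 416 and 352 in wild-type, a change of -0.64 ± 0.09 (adjusted p = 0.000827). In SUMO-KD it fell from 589, 647 and 576 to 458, 442 and 420.0, a change of -0.43 ± 0.09 (adjusted p = 0.0129), lost without replicate 2 of SUMO-KD sham or replicate 3 of SUMO-KD ischemia (adjusted p up to 0.0556). Its dimmer probe sets gave -0.18 and -0.06 in wild-type and were not called. Snapc2, of the same complex, moved the other way, from 933, 967 and 907 to 1503, 1183 and 1605 in wild-type, a rise of 0.58 ± 0.12 (adjusted p = 0.00572) that a second probe set shared at 0.54. In SUMO-KD it read 962, 895 and 923 in sham and 1023, 1292 and 1169 after ischemia, with a change of 0.31 ± 0.12 (adjusted p = 0.131).

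In SUMO-KD mice, ischemia called 3 of the 68 members: Shank3 and Snapc3 fell and Syncrip rose. That is 4.41% of members, against a background of 10.7% of all genes, with 1 higher against 6.08% and 2 lower against 4.62%. The median change of the members was -0.01, against -0.02 over all genes, and 14 (20.6%) had an unadjusted p under 0.05, against 24.1% of all genes. Sham and ischemia arrays did not overlap for 19 members and for 29.8% of all genes. Leaving out the name-only members and Dlgap5, Shank3 alone was called. The counts are small and depend on single arrays. Without replicate 2 of SUMO-KD ischemia, the array with the high 18S value, 0 rose and 1 fell. Without replicate 3 of SUMO-KD ischemia or replicate 2 of SUMO-KD sham, 0 rose and 0 fell. Without replicate 1 of SUMO-KD ischemia, 3 rose and 3 fell. Without replicate 1 of SUMO-KD sham, 1 rose and 1 fell. Omission of replicate 1 of wild-type sham gave 3 risen, and omission of replicate 2 of wild-type sham or replicate 3 of wild-type ischemia gave 2. Members that missed the threshold passed it in some settings or omissions. In SUMO-KD these were Stxbp4 in 9, Stxbp3 in 8, Cplx4 in 6, Vamp7 in 4 and Vamp4 in 2, and in wild-type Stxbp4 in 5, Stxbp6 and Syt6 in 4 each, and Snap91, Stx4a and Syt4 in 3 each.

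The ischemia comparisons of the genotypes use separate arrays, so their values can be set side by side. Of the 68 members, 48 had the same sign in both genotypes, which is 70.6%, against 72.5% of all genes. Among the 12 members called in wild-type, 11 had the same sign in SUMO-KD and 11 had the smaller change there. Of the 2289 genes called in wild-type, 2206 had the same sign in SUMO-KD and 83.4% the smaller change. Members chosen by their wild-type call favour wild-type in the count of smaller changes. Called in both were 3 of the 12 members, or 25%, against 44.9% of the genes called in wild-type. The difference itself was tested as the interaction, where 0 members passed with limma, against 0.0161% of all genes, and 3 members (4.41%) had an unadjusted p under 0.05, namely Stxbp6, Stx12 and Stx1a, against 6.2% of all genes. A call in wild-type alone thus does not show that the genotypes differ.

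**Figure D3:**
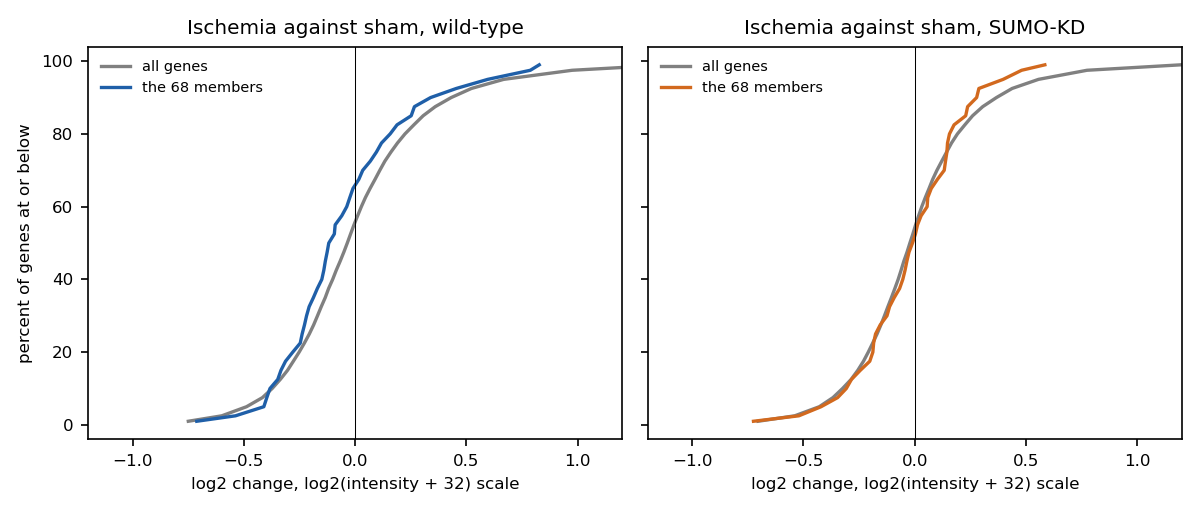
Cumulative percent of genes by log2 change with ischemia, for all 12394 genes and for the 68 members, in wild-type and in SUMO-KD, drawn between -1.2 and 1.2. The members' curve in wild-type has its median at -0.12, below the -0.04 of all genes, while in SUMO-KD the medians are -0.01 for members and -0.02 for all genes.

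Averaged over both genotypes, which raises the precision and shares every array with the comparisons above, 17 members were called, 6 higher and 11 lower. This is 25% of the members, against 26.7% of all genes, with backgrounds of 12.8% higher and 14% lower. Beyond 10 of the members called in wild-type, the mean added Cplx4 and Syt4 among the higher and Dlg4, Snap91, Stx4a, Stx8 and Stxbp4 among the lower. Stx12 and Stx7, called in wild-type, did not pass in the mean (adjusted p = 0.0509 and 0.0617) but did so in 8 and 7 settings or omissions. Omission of single arrays moved the mean counts to between 3 and 8 higher and between 8 and 12 lower, with the 3 obtained without replicate 2 of SUMO-KD ischemia.

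Genotype in sham changed a single member in the fit as reported. Rims2, an active zone protein that docks and primes vesicles, was higher in SUMO-KD sham than in wild-type sham. It read 657, 716 and 822 in wild-type sham and 1140.4, 1147 and 1219 in SUMO-KD sham, with no overlap, a difference of 0.66 ± 0.10 (adjusted p = 0.00547), or 1.58 times the wild-type value on the offset scale. The call was kept in all 12 omissions of an array and all 13 other settings. A second probe set of Rims2 gave 0.63, with an adjusted p of 0.0362 over all probe sets. The background in this comparison was 2.1% of all genes, and 1 of 68 members is 1.47%; 11 members (16.2%) had an unadjusted p under 0.05, against 14.2% of all genes. Arrays did not overlap for 14 members and for 20.7% of all genes.

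After ischemia Rims2 read 691, 764 and 831 in wild-type and 1015, 1025 and 1056 in SUMO-KD, again without overlap, and the difference of 0.43 ± 0.10 had an adjusted p of 0.0607. It passed in 7 alternative settings or omissions. Ischemia did not call it in either genotype (0.06 ± 0.10 in wild-type, -0.17 ± 0.10 in SUMO-KD). With _x_at and _s_at probe sets removed, which leaves its second probe set, the SUMO-KD change was -0.43 and was called (adjusted p = 0.049). For the first probe set, the interaction of -0.23 ± 0.14 had an adjusted p of 0.877. The second probe set gave 0.12 after ischemia, so the probe sets differ there.

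Across the members, SUMO-KD ischemia against wild-type ischemia called 0 with limma, against 1.56% of all genes, and 13 (19.1%) had an unadjusted p under 0.05, against 15.5% of all genes. Arrays did not overlap for 16 members and for 20.2% of all genes. Sv2a, a vesicle glycoprotein and the binding site of the drug levetiracetam, read 2105, 2199 and 2117 in wild-type sham and 2996, 2685 and 2469 in SUMO-KD sham. Its difference of 0.34 ± 0.09 was short of the threshold (adjusted p = 0.0813) though the arrays are apart. It passed with an offset of 64, the filter on dim genes, trend and robust settings and array weights (adjusted p from 0.0299 to 0.0492), and after ischemia it was 0.24 ± 0.09 (adjusted p = 0.22). Syt17 had differences of 0.59 ± 0.23 in sham and 0.83 ± 0.23 after ischemia (adjusted p = 0.276 and 0.118), also with arrays that did not overlap. The wild-type and SUMO-KD arrays of these comparisons are separate for sham and ischemia.

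**Figure D4:**
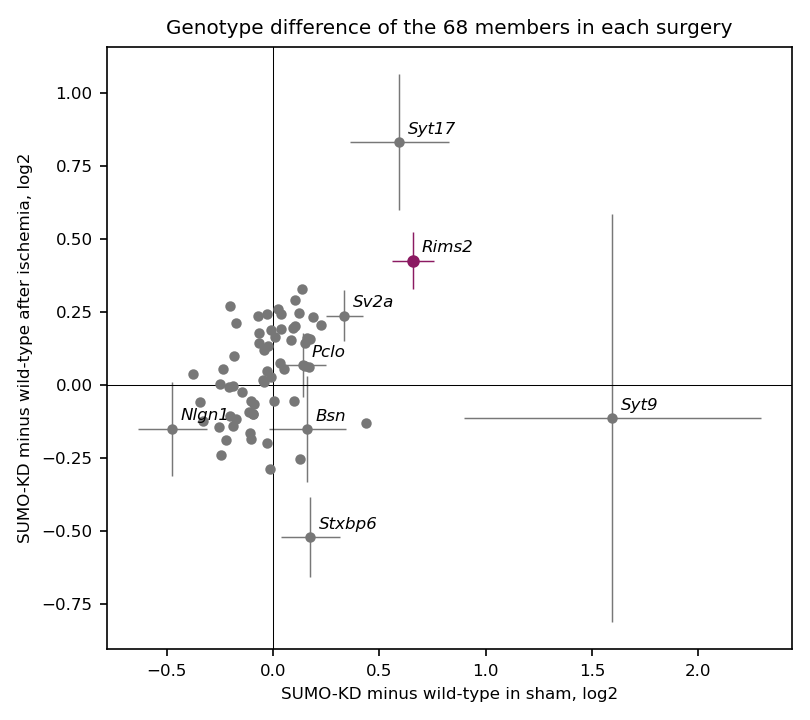
Log2 difference of SUMO-KD minus wild-type for each member, in sham on the horizontal axis and after ischemia on the vertical axis; error bars, drawn for named members, are ± SE. Rims2 (purple) is the one called member, at 0.66 in sham and 0.43 after ischemia, and Stxbp6 lies at 0.18 and -0.52.

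Promoter sequences are shown for members called with ischemia in both genotypes, and for Stxbp3, which was called in wild-type and holds one of the searched motifs; Vamp4 and other members with more than 1 listed start were left out. They come from RefSeq on build GRCm38.p6, which lists windows from 250 bases before to 50 after the start for 54 of the 68 members. Each line gives the 250 bases before the start, 5′ to 3′ on the gene's own strand, with a motif match in capitals. The Shank3 stretch is chr15:89499358-89499607 on the plus strand, Snapc3 is chr4:83417474-83417723 on the plus strand, Syncrip is chr9:88482398-88482647 on the minus strand and Stxbp3 is chr3:108840503-108840752 on the minus strand.
Shank3: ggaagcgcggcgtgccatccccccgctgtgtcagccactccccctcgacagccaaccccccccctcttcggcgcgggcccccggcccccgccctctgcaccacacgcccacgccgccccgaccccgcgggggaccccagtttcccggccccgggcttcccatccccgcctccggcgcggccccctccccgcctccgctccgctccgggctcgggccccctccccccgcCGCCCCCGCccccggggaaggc
Snapc3: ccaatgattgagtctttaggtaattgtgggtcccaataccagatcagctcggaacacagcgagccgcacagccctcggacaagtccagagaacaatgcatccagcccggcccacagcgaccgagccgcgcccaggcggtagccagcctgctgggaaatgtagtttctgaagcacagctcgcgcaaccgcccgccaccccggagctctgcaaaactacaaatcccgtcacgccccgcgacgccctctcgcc
Syncrip: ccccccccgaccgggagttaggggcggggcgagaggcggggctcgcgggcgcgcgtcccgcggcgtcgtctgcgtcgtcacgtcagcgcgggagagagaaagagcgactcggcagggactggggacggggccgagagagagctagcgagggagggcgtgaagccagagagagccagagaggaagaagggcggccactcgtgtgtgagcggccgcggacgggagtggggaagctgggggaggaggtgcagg
Stxbp3: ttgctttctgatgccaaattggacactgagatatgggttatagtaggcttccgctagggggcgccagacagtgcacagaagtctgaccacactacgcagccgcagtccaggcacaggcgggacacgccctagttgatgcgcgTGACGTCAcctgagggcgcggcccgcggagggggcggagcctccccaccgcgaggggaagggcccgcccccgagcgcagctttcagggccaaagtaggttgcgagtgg

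The search covered TGACGTCA (the cyclic AMP response element), TGANTCA (an AP-1-like spelling in which N is any base) and GCGGGGGCG (the Egr site). Both strands of the whole windows were searched, and none of these spellings contains another. The capitals in Shank3 are the Egr spelling on the opposite strand, at bases 229 to 237, and those in Stxbp3 the cyclic AMP spelling at bases 143 to 150. Snapc3 and Syncrip hold none of the spellings in these windows. Over 74 windows of the members, TGACGTCA was found in 4.05% (Snapc5, Stxbp3 and Syn1), against 1.79% of all 32851 windows. TGANTCA was in 4.05% (Syt2, Syt6 and Syt8), against 7.81%, and GCGGGGGCG in 5.41% (Cplx1, Shank3, Syn2 and Vamp4), against 2.91%. A match is a description of these letters and not a measured site. G and C made up 81% of the Shank3 window, 62% for Snapc3, 72.3% for Syncrip and 65.3% for Stxbp3, against a median of 52.7% over all windows.

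Other genes of the synapse outside the symbol rule give a setting for these values. From a list of 87 genes of vesicle priming, recycling, calcium-triggered release, transporters and adhesion, 64 were measured. Ischemia in wild-type called 7 of them (10.9%, against 18.5% of all genes): Rph3a, a Rab3 effector, rose by 0.72 ± 0.22, and Doc2b (a calcium sensor), Lrrtm1, Napg (a SNARE-recycling adaptor), Rab3a, Rab3c and Rab3d fell. Among those that fell, the postsynaptic adhesion protein Lrrtm1 had the largest change, -0.93 ± 0.17 (adjusted p = 0.00286), from 1767 ± 143 to 921 ± 185 (SD, n = 3). The vesicle GTPases Rab3c and Rab3d changed by -0.64 ± 0.13 each. In SUMO-KD 2 fell, Lrrtm1 by -0.61 ± 0.17 and Scamp1 by -0.40 ± 0.10, and none rose, which is 3.12% against 10.7% of all genes. The median change of the 64 was -0.14 in wild-type and -0.06 in SUMO-KD, against -0.04 and -0.02 over all genes. Between genotypes, Cadps2, a priming factor of dense-core vesicles, was higher in SUMO-KD in sham (0.47 ± 0.11) and after ischemia (0.59 ± 0.11), Doc2b was lower in sham (-0.94 ± 0.16) and the vesicle protein Synpr lower after ischemia (-0.91 ± 0.19).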

How the data were processed

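Arrays held biotin-labelled targets made with a MessageAmp Premier kit from Trizol-extracted RNA, per the labels' protocols. The deposited table gives a linear intensity per probe set; Partek 6.6 and RMA stand in the submitters' processing notes with no role or order. RMA gives log2 values, and the deposited ones are linear, with a 2% trimmed mean of 500.2 on each of the 12 arrays. How they were made from the scans is not stated in the sources used here.

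Probe sets with a single symbol in the platform annotation (20393 of 22690) were kept, with 1 per gene, the brightest, which gave 12394 genes. Of the 68 members, 37 have several probe sets; 1 probe set that lists Vamp1 with another gene was left out. log2(intensity + 32) was fitted by group means with limma 3.58.1 (lmFit, eBayes; R 4.3.3), two-sided, with Benjamini-Hochberg adjustment over all genes. The comparisons were ischemia in each genotype, their mean, their difference (the interaction) and genotype within each surgery. The script was tested on simulated data. Precision is limited by the 3 arrays per group.

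Members, lists and settings were chosen with earlier results of these data known. Named are members called in any comparison, the brightest of each role and a list of core genes, of which 13 of 19 were measured. Every probe set by itself was added after seeing the data. Alternatives were offsets of 1, 16 and 64, a filter on dim genes, other probe set choices, quantile normalization, median centring, the replicate block, fits on the compared groups only, trend and robust settings, array weights and omission of each array.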

Additional observations from a re-analysis of the deposited data

How the results depend on the processing

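For the 33 calls of a member in a comparison, 807 recomputed values were compared: 674 stayed past the threshold in the same direction, 129 kept the direction and lost the call, and 4 turned. Kept under every setting and omission were 9 calls, and 16 under every omission of an array. Among the 9 are calls of Dlg3, Shank3 and Snap91, which have 1 probe set each. For these, other probe set choices could not change the estimate. The 4 that turned came from the second brightest probe set: Bsn in wild-type gave -0.0011, and Syncrip gave -0.26 in wild-type, -0.47 in SUMO-KD (adjusted p = 0.0279) and -0.36 in the mean (adjusted p = 0.00774), the latter pair called.

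Counts of called members moved by over 1.5 times as follows, against 4 higher and 8 lower in wild-type, 1 higher and 2 lower in SUMO-KD, 6 higher and 11 lower in the mean, 1 for genotype in sham and 0 after ischemia. With an offset of 1, 2 rose in wild-type, beside 1038 of all genes. An offset of 64 gave 2 risen in SUMO-KD, 2 for genotype in sham and 1 after ischemia. Over all genes it gave 801 risen in SUMO-KD. Genotype called 219 genes higher and 105 lower in sham, and 151 and 96 after ischemia. The filter on dim genes left 55 members to test. It gave 13 fallen in wild-type, 2 risen and 4 fallen in SUMO-KD, and 2 and 1 for genotype. Of the 7882 genes it left, 1324 fell in wild-type, and 796 rose and 717 fell in SUMO-KD. Genotype called 195 of them higher and 118 lower in sham, and 170 and 94 after ischemia. Averaging all probe sets of a gene gave 0 risen in SUMO-KD, beside 740 of all genes. The second brightest probe set gave 1 risen and 4 fallen in wild-type and 0 risen in SUMO-KD. It gave 7 fallen in the mean and 2 for genotype after ischemia. Over all genes that choice gave 1025 risen and 777 fallen in wild-type, 593 risen in SUMO-KD and 1274 fallen in the mean. Genotype after ischemia called 85 genes higher and 49 lower. Quantile normalization gave 3 risen in SUMO-KD, beside 3 fallen, and 1 for genotype after ischemia. Over all genes it gave 745 risen and 644 fallen in SUMO-KD, and 134 higher and 82 lower for genotype after ischemia. Fits on the compared groups only gave 2 risen and 3 fallen in wild-type, beside 900 and 663 of all genes. Trend and robust settings gave 2 risen and 4 fallen in SUMO-KD and 2 and 1 for genotype. Over all genes they gave 825 risen and 675 fallen in SUMO-KD. Genotype called 213 genes higher and 116 lower in sham, and 175 and 100 after ischemia. Array weights gave 7 risen in wild-type, 3 risen and 5 fallen in SUMO-KD, and 2 and 1 for genotype. Over all genes they gave 1320 risen in wild-type, and 1043 risen and 862 fallen in SUMO-KD. Genotype called 297 genes higher and 160 lower in sham, and 222 and 109 after ischemia. The causes were not tested. Median centring, an offset of 16 and removal of shared probe sets moved none of these counts so far, although centring turned the split of all genes called in wild-type from 1188 higher and 1101 lower to 986 and 1426.

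Correlations of same-numbered arrays ran from -0.17 to 0.28, and 5 of 18 were over 0.1. An array's best match bore its own number in 21 of 36 cases. No chance level was computed for that count, so these values do not settle whether the replicate numbers pair the samples. With the replicate block, 6 members fell in wild-type, with the calls of Bsn, Stx7 and Vamp7 lost (adjusted p = 0.0598, 0.0547 and 0.0654), and Stxbp6 was gained (0.0352). In SUMO-KD 2 rose, with Cplx4 gained, and 1, Rims2, was called for genotype after ischemia; over all genes it called 1204 higher and 1090 lower in wild-type.

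Omission of single arrays gave 2 to 6 risen and 3 to 8 fallen in wild-type, and 0 to 3 risen and 0 to 3 fallen in SUMO-KD. In the mean 3 to 8 rose and 8 to 12 fell. Genotype called 1 to 2 in sham and 0 to 1 after ischemia, and the interaction 0 in every case. Over all genes these omissions gave 832 to 1206 risen and 693 to 1101 fallen in wild-type. In SUMO-KD they gave 475 to 790 risen and 269 to 615 fallen. Members under an intensity of 32 are limited by background. With 3 arrays per group, changes of several SE can miss the threshold, as Stxbp4 did in SUMO-KD at -0.47 ± 0.14 (limma adjusted p = 0.0547). A member that was not called is therefore not shown to be unchanged.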
